A study of Mus musculus with 17 samples.

Results

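The genes described here are the 4 members of the EGR (early growth response) family, Egr1, Egr2, Egr3 and Egr4, with 6 other immediate-early genes, Arc, Ier2, Ier3, Nr4a1, Klf2 and Klf4. They were picked by symbol from the raw count table, and all 10 listed symbols were found among its 15062 genes. The list was drawn up with results from these same libraries known. Levels and changes are therefore given as descriptions. Each count of changed members stands beside the percentage of all genes that met the same criterion, unless stated otherwise. Nothing is read from the members' tests beyond that.

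Immediate-early genes are switched on within minutes of a signal such as serum or a growth factor, without new protein synthesis, and their transcripts decay quickly. Many are controlled by serum response factor (SRF), which binds a DNA element called the CArG box, often together with ternary complex factors (Elk1, Elk3, Elk4) that are activated by the ERK kinases. The EGR proteins are zinc finger transcription factors that act on the next layer of genes, among them those for the corepressors Nab1 and Nab2, which hold EGR activity in check. In cultured myoblasts the same genes respond to serum and to handling of the cells.

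The libraries came from total RNA of C2C12, a line of mouse myoblasts that was kept in serum here and that can form muscle fibres in culture. The groups were lines expressing the empty vector pMSCV, SRF, or a fusion named for SRF and a partner: SRF-FOXO1, SRF-ICA1L, SRF-PDGFRB or SRF-RELA. FOXO1 is a forkhead transcription factor, RELA a subunit of NF-kappaB and PDGFRB a growth factor receptor. There were 3 libraries for each line and 2 for SRF-PDGFRB, and all groups shared the parental line, medium and vector. The labels name neither clones nor the promoter of the construct, and do not say whether replicates were separate cultures, so p-values measure only the spread between these samples, which may be technical.

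Library totals lay between 20901442 and 23543734 counts. Every gene in the deposited table, and so every member, reached 10 counts in at least 3 libraries. Of the members, 9 did so in all 17 libraries and Egr4 in 6. Levels are in CPM, counts scaled to a common library size by TMM, the trimmed mean of M values. Mouse Srf stood at 66.6 to 93.8 CPM in pMSCV, at 678 to 1673 CPM in SRF and at 70.5 to 279 CPM in the 11 fusion libraries. By replicate number it was at 279, 176 and 121 CPM in SRF-ICA1L and at 155, 137 and 85.0 CPM in SRF-RELA. In SRF-FOXO1 it was at 105, 84.1 and 71.8 CPM and in SRF-PDGFRB at 70.5 and 81.4 CPM. The labels do not say which stretch of SRF the fusions hold or from which species, so the level of Srf checks the SRF label only. Its part in the levels of the members was not tested. Of the 6 myoblast markers (Myf5, Myod1, Pax7, Des, Cdh15, Chrna1) all were in the table, with a summed level of 1211 to 1668 CPM in pMSCV. Ptprc and Adgre1 (macrophage), Pecam1 and Kdr (endothelium) and Thy1 (fibroblast) were not among the genes of the table.

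In the GENCODE M21 annotation of GRCm38, Egr2 is at chr10:67535475-67542188 on the plus strand and Egr3 at chr14:70077203-70082614 on the plus strand. Egr4 is at chr6:85511121-85513589 and Arc at chr15:74669083-74672570, both on the minus strand. Ier2 is at chr8:84661331-84662852 (minus) and Ier3 at chr17:35821684-35822923 (plus). Nr4a1 is at chr15:101254269-101274795 (plus), Klf2 at chr8:72319033-72321656 (plus) and Klf4 at chr4:55527143-55532466 (minus). No other annotated gene overlapped the exons of a member.

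RefSeq promoter sequence (GRCm38.p6) was at hand for 6 of the 10 members. The 250 bases before the start site are shown for Egr2, whose window holds a CArG box, for Egr4, whose level differed most between lines, and for Nr4a1, whose level differed most between replicate numbers. Capitals mark the CArG box, the element SRF binds, and the core of the cAMP response element, TGACG, read on either strand (CGTCA on the other). The Egr2 window is chr10:67537619-67537868 on the plus strand, between annotated exons of Egr2 and upstream of the third of its 5 RefSeq start sites. The Egr4 window is chr6:85513590-85513839 on the minus strand, outside the gene, and the Nr4a1 window is chr15:101266596-101266845 on the plus strand, within the gene and between its exons.
Egr2: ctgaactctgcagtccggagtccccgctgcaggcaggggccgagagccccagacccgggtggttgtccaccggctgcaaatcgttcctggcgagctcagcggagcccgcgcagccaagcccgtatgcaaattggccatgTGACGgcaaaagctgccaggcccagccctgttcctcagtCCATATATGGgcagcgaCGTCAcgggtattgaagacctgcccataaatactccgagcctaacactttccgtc
Egr4: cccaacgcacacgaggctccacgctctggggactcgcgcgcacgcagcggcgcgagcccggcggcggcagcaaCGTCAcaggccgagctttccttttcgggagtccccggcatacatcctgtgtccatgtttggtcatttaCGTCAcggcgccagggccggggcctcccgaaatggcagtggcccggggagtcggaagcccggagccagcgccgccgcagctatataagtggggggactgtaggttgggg
Nr4a1: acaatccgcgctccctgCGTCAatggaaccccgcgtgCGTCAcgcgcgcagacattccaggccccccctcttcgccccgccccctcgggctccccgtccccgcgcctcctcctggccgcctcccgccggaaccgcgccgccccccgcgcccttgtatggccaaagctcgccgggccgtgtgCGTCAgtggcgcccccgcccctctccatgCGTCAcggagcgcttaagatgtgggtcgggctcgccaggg

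The CArG box of Egr2 lies 72 to 63 bases before that start site, and windows 4 and 5, which overlap this one, hold the same box. The second window holds another, so that the 5 Egr2 windows hold 2 distinct boxes. Over all promoters in the RefSeq table, 482 of 32851 windows of this length (1.47%) held one. TGACG was found 2 times in the Egr2 window, 2 times in Egr4, 4 times in Nr4a1 and once each in Klf2 and Klf4, against 17.8% of all windows with at least 1. Only exact matches to CCWWWWWWGG, with W for A or T, were counted as a CArG box. Neither Egr4, Nr4a1, Ier3, Klf2 nor Klf4 had such a match in its window. Sequences 1 base away from it were not counted, such as CCATGTTTGG in Egr4, CCTTGTATGG in Nr4a1 and CCTTCTTTGG in Ier3. Their share over all windows was not taken, so a looser form of the element is not excluded. The site bound by EGR proteins, GCGNGGGCG, was searched on both strands and is not capitalised. It occurred once in Nr4a1 (60 to 52 bases before the start), once in Klf2 and 2 times in Klf4, and in 4.7% of all windows. No window of a member held the AP-1 site TGANTCA, the FOXO site GTAAACA or the full cAMP response element TGACGTCA, which contains the TGACG core. These matches describe the letters of the windows only.

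For Egr1, Egr2, Egr3, Ier2, Ier3 and Nr4a1, the libraries within every line spanned a wider range than the means of the lines, which was not so for Arc, Klf2 and Klf4. Egr1, the EGR factor most widely induced by serum, was at 520, 1818 and 84.7 CPM in pMSCV replicates 1, 2 and 3 and at 981, 1576 and 127 CPM in SRF. It was at 1195, 2717 and 215 CPM in SRF-ICA1L and at 1894, 3149.8 and 176 CPM in SRF-RELA. SRF-FOXO1 had 161, 3252 and 209 CPM, and SRF-PDGFRB had 2574 and 170 CPM. In the 4 lines SRF-RELA, SRF-ICA1L, SRF and pMSCV, replicate 2 was highest and replicate 3 lowest, and every line overlapped with every other. Within a line the highest library exceeded the lowest by 12.4 to 21.5 times, whereas the highest and the lowest mean of the lines differed by 2.15 times. The levels of the 10 genes by library are plotted by line and replicate number.

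**Figure D1:**
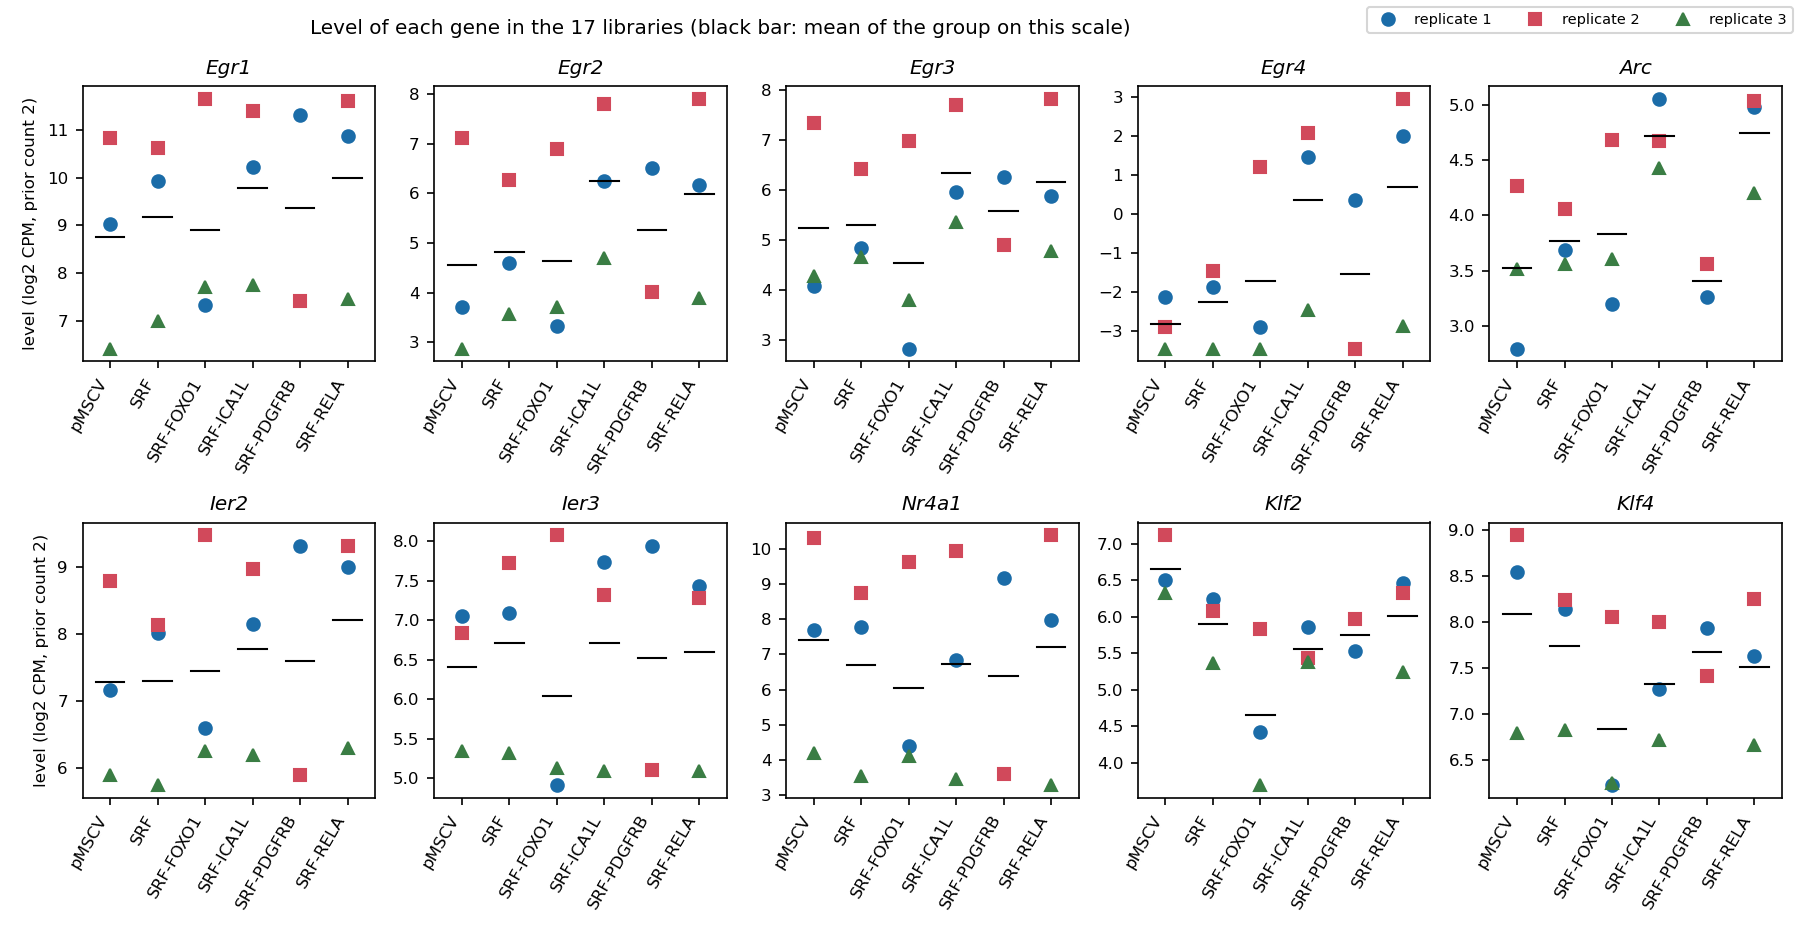
Level of each gene (log2 CPM, prior count 2, vertical axis, with its own scale in each panel) in the 17 libraries by line (horizontal axis). Colour and shape give the replicate number and black bars the mean of the line. Replicate 2 sits at the top and replicate 3 at the bottom of most columns, with Egr1 between 84.7 and 3252 CPM, while Arc and Klf2 vary less.

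Egr2, which drives myelination in Schwann cells and is induced by growth factors elsewhere, stood at 13.1, 138 and 7.20 CPM in pMSCV and at 24.2, 77.2 and 11.8 CPM in SRF. In SRF-ICA1L it was at 75.4, 222 and 25.7 CPM and in SRF-RELA at 72.2, 240.5 and 14.6 CPM. SRF-FOXO1 had 9.94, 118 and 13.0 CPM and SRF-PDGFRB 91.2 and 16.0 CPM. Replicate 2 was again the highest of each 3, and no line stood clear of another.

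Egr3, a factor known for its role in muscle spindle development, was at 16.8, 163 and 19.5 CPM in pMSCV and at 28.5, 86.6 and 25.3 CPM in SRF. It reached 62.6, 209.9 and 41.4 CPM in SRF-ICA1L and 58.8, 229 and 27.6 CPM in SRF-RELA. In SRF-FOXO1 it was at 7.02, 128 and 14.0 CPM and in SRF-PDGFRB at 76.5 and 30.0 CPM. The lines overlapped, with pMSCV the only one of the 4 lines above in which replicate 1 was the lowest.

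Egr4, the member with the fewest transcripts, had 3, 1 and 0 counts in pMSCV and 4, 6 and 0 counts in SRF. It had 55, 92 and 2 counts in SRF-ICA1L and 80, 169 and 1 counts in SRF-RELA. SRF-FOXO1 had 1, 47 and 0 counts and SRF-PDGFRB 26 and 0. Libraries with more than 6 counts were thus found only in the 4 fusion lines, and each fusion line also had a library with 2 counts or fewer. Every gene of the table reached 10 counts in at least 3 libraries, and Egr4 did so only in 6 libraries of the fusion lines. It was thus open to testing only through the lines where it was high. Its calls in the fits below, and counts of members that include it, are therefore descriptions and carry no support. Summed over its libraries, SRF-RELA had 250 counts against 4 in pMSCV, 64.4 times as many at equal library size (95% exact binomial interval 24.9 to 238). For SRF-ICA1L the ratio was 37.7 (14.4 to 140.1), for SRF-FOXO1 11.8 (4.33 to 45.2), for SRF-PDGFRB 9.66 (3.35 to 38.1) and for SRF 2.46 (0.710 to 10.7). These intervals cover counting error only and not the spread between libraries, and each fusion's ratio rested on its libraries with high levels of the other members.

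Arc, whose protein forms virus-like capsids and is best known from neurons, varied least with the replicate number. It was at 6.82, 19.1 and 11.3 CPM in pMSCV and at 12.8, 16.6 and 11.7 CPM in SRF. SRF-ICA1L had 33.3, 25.5 and 21.5 CPM and SRF-RELA 31.6, 32.9 and 18.3 CPM. SRF-FOXO1 had 9.07, 25.6 and 12.1 CPM and SRF-PDGFRB 9.46 and 11.7 CPM. All 3 SRF-ICA1L libraries lay above all pMSCV and SRF libraries, and all 3 SRF-RELA libraries lay above those of SRF but not above pMSCV replicate 2.

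Ier2, a nuclear protein induced early by serum, was at 143, 445 and 59.1 CPM in pMSCV and at 258, 281 and 53.3 CPM in SRF. It was at 284, 503 and 73.1 CPM in SRF-ICA1L and at 511, 634 and 78.7 CPM in SRF-RELA, with 96.8, 713 and 76.3 CPM in SRF-FOXO1 and 635 and 59.3 CPM in SRF-PDGFRB. Its order of libraries was that of Egr1 in the 4 lines whose numbers run together. Ier3, a stress and survival gene that is also an NF-kappaB target, was at 133, 114 and 40.3 CPM in pMSCV and at 136, 212 and 39.9 CPM in SRF. It was at 213, 159 and 33.9 CPM in SRF-ICA1L and 173, 155 and 33.9 CPM in SRF-RELA, with 29.9, 270.4 and 34.8 CPM in SRF-FOXO1 and 245 and 34.3 CPM in SRF-PDGFRB. Here replicate 3 was the lowest in the 4 lines, but replicate 1 exceeded replicate 2 in pMSCV, SRF-ICA1L and SRF-RELA.

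Nr4a1 (Nur77), an orphan nuclear receptor, had the widest range of the 10 genes. Its level was 209.5, 1275 and 18.1 CPM in pMSCV and 220.1, 428 and 11.6 CPM in SRF. It was 114, 986 and 10.8 CPM in SRF-ICA1L and 254, 1356 and 9.56 CPM in SRF-RELA, with 20.9, 789 and 17.03 CPM in SRF-FOXO1 and 578 and 12.1 CPM in SRF-PDGFRB. Within a line the highest library exceeded the lowest by 36.9 to 142 times, and the means of the lines differed by at most 2.45 times.

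Klf2 and Klf4 encode Krüppel-like zinc finger factors, Klf2 known for quiescence of endothelium and T cells and Klf4 as a reprogramming factor. Klf2 was at 91.2, 139 and 79.9 CPM in pMSCV, at 75.9, 67.3 and 41.3 CPM in SRF and at 88.1, 79.9 and 37.7 CPM in SRF-RELA. It was at 58.0, 43.2 and 41.7 CPM in SRF-ICA1L, at 21.4, 56.9 and 12.8 CPM in SRF-FOXO1 and at 46.3 and 62.7 CPM in SRF-PDGFRB. The libraries of SRF, SRF-FOXO1, SRF-ICA1L and SRF-PDGFRB all lay below the 3 pMSCV libraries, while SRF-RELA overlapped with them. Klf4 was at 373, 494 and 110.3 CPM in pMSCV, at 282, 303 and 113 CPM in SRF and at 198, 305 and 101 CPM in SRF-RELA. It was at 154, 256 and 105 CPM in SRF-ICA1L, at 74.5, 266 and 75.5 CPM in SRF-FOXO1 and at 246 and 170.1 CPM in SRF-PDGFRB. For both genes pMSCV had the highest mean, but for Klf4 its replicate 3 lay among the other lines.

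Ordered by the means of the lines, SRF-RELA came first and SRF-ICA1L next for all 4 EGR genes and for Arc. For Klf2 and Klf4, pMSCV came first and SRF-FOXO1 last. In none of the 50 pairs of neighbouring lines in these orders were the libraries of the 2 lines apart. No share over all genes was taken for such neighbours, so nothing is read from this overlap. This overlap takes no account of the replicate number, and with same-numbered libraries set side by side some neighbours differed in 1 direction in 3 of 3 pairs, such as SRF-ICA1L and pMSCV for Egr3 and pMSCV and SRF-RELA for Klf2. In the GENCODE M21 annotation, Egr1 itself lies at chr18:34859823-34864984 on the plus strand. Per kilobase of exon, Egr1 had the highest mean level in every line, from 180.1 ± 201 CPM per kb in pMSCV to 388 ± 333 CPM per kb in SRF-RELA (SD, n = 3 each). Ier2 followed at 268 ± 191 CPM per kb in SRF-RELA (SD, n = 3). Egr2 and Egr3 stood at 32.1 ± 34.5 and 23.9 ± 24.6 CPM per kb, Arc at 9.03 ± 2.64 CPM per kb and Egr4 at 1.81 ± 1.78 CPM per kb in the same line (SD, n = 3 each).

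The replicate numbers of SRF-RELA, SRF-ICA1L, SRF and pMSCV ran together over the whole transcriptome, as set out under the processing. Among the 40 combinations of a member and a line in these 12 libraries, replicate 3 was the lowest in 38 and replicate 2 the highest in 32. Over all genes, replicate 3 was the lowest in 33.6% of such combinations and replicate 2 the highest in 36.8%. On the log2 scale, the replicate number held 96.4% of the sum of squares of Nr4a1, 93.9% for Ier3, 90.6% for Egr1 and 86.3% for Ier2. It held 79.1% for Klf4, 78.0% for Egr3 and 75.8% for Egr2, against a median of 49.6% over all genes. For Egr4 (39.9%), Klf2 (33.0%) and Arc (12.8%) it held less than that median. Those 3 had the largest shares for the line instead, 45.5% for Egr4, 50.8% for Klf2 and 66.2% for Arc, against an all-gene median of 19.5%. Averaged over the 4 lines, replicate 2 exceeded replicate 3 by 75.6 times for Nr4a1, 15.7 times for Egr1, 11.5 times for Egr2 and 1.499 times for Arc. The summed myoblast markers ran the other way and were highest in replicate 3 of all 4 lines, at 1211, 1250 and 1668 CPM in pMSCV, 607, 624 and 1228 CPM in SRF, 369, 502 and 967 CPM in SRF-ICA1L and 278, 491 and 607 CPM in SRF-RELA. Their part in the levels of the members was not tested.

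**Figure D2:**
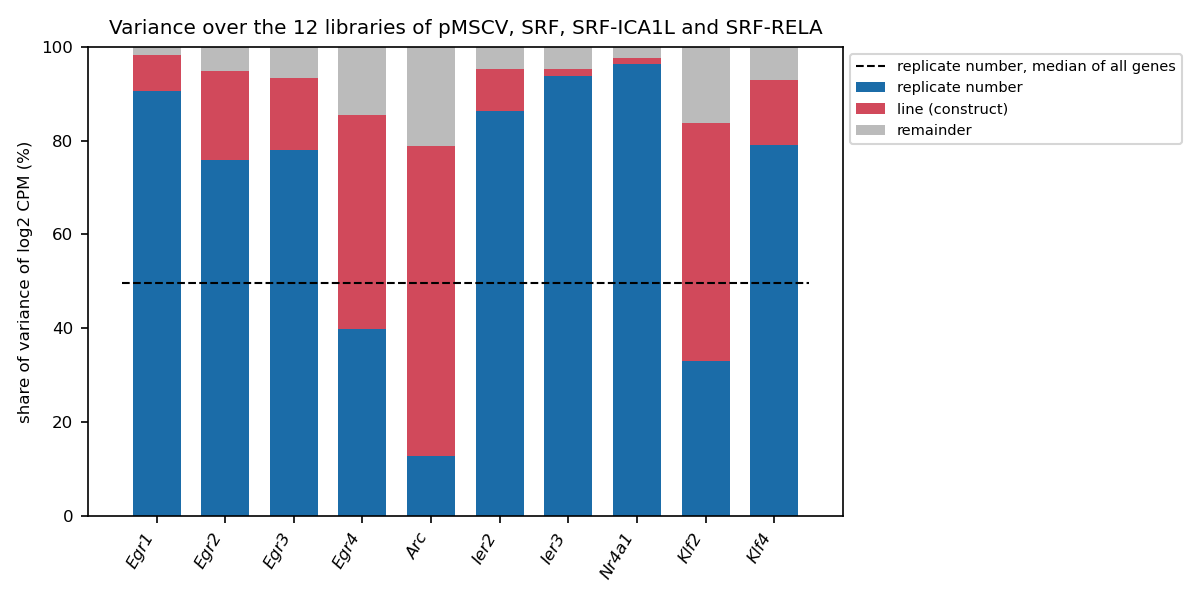
Share of the sum of squares of log2 CPM (percent, vertical axis) held by the replicate number, the line and the rest, for each gene (horizontal axis) in the 12 libraries of SRF-RELA, SRF-ICA1L, SRF and pMSCV. The replicate number holds 96.4% for Nr4a1 and 12.8% for Arc, and the dashed line gives its median over all genes, 49.6%.

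Outside these 4 lines the numbers did not mark the same states. SRF-FOXO1 replicate 2 was high for all 10 members, and its replicate 1 was lower than its replicate 3 for Egr1, Egr2, Egr3, Arc, Ier3 and Klf4. SRF-PDGFRB replicate 1 was above replicate 2 for 8 members, all but Arc and Klf2. In the same 2 libraries of SRF-PDGFRB the summed myoblast markers stood at 83.1 and 1859 CPM, and the summed markers of differentiating muscle (Myog, Mymk, Mymx, Myh3, Acta1, Ckm, Tnnt1, Tnnc1, Actc1) at 15.3 and 524 CPM, low where Egr1 was high. In bulk RNA, fewer cells with a transcript and less of it per cell cannot be told apart.

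In the comparison of lines over all 17 libraries, with no account of the replicate number, 0 of the 10 members were called by edgeR's quasi-likelihood test at an adjusted p under 0.05 in any of 10 comparisons. Of all genes, 0.00664% were called for SRF against pMSCV, 0.71% for SRF-FOXO1, 0% for SRF-ICA1L, 0.0199% for SRF-PDGFRB and 0% for SRF-RELA. Against SRF the percentages were 0.00664% for SRF-FOXO1, 0% for SRF-ICA1L, 0.0531% for SRF-PDGFRB and 0.00664% for SRF-RELA. For the 4 fusions averaged against pMSCV and SRF averaged it was 0.0199%. DESeq2 called 1 member, Klf2 in SRF-FOXO1 against pMSCV (adjusted p = 0.00535), where it called 9.07% of all genes, and 0 of 10 elsewhere. There it called 0.0266%, 0.299%, 0.466% and 0.725% of all genes for SRF, SRF-ICA1L, SRF-PDGFRB and SRF-RELA against pMSCV. Against SRF it called 3.97% for SRF-FOXO1, 0.0133% for SRF-ICA1L, 0.386% for SRF-PDGFRB and 0.0599% for SRF-RELA, and for the 4 fusions averaged 7.03%. The standard errors of the members against pMSCV ran from 0.40 to 2.36 on the log2 scale, with a median over all genes of 0.31 for lines with 3 libraries, so changes of several fold in genes such as Nr4a1 were not detectable with this spread.

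Members with an unadjusted p under 0.05 in that fit were few and are given with their size. Against pMSCV there were 0 of 10 for SRF (3.34% of all genes), 1 for SRF-FOXO1 (20.9%), 3 for SRF-ICA1L (6.23%), 0 for SRF-PDGFRB (7.7%) and 2 for SRF-RELA (8.05%). Klf2 was lower in SRF-FOXO1, with a log2 fold change of -1.77 (SE 0.47, edgeR adjusted p = 0.0688). Arc had a log2 fold change of 1.11 (SE 0.41) in SRF-ICA1L and 1.15 (SE 0.41) in SRF-RELA, with edgeR adjusted p-values of 0.703 and 0.512. Klf2 had -1.12 (SE 0.46) in SRF-ICA1L (edgeR adjusted p = 0.767), and Egr4 was the other gene in both lines.

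Against SRF, the counts at an unadjusted p under 0.05 were 1 of 10 for SRF-FOXO1 (19.2% of all genes), 1 for SRF-ICA1L (1.56%), 0 for SRF-PDGFRB (5.03%) and 2 for SRF-RELA (3.21%). Klf2 had a log2 fold change of -1.02 (SE 0.46) in SRF-FOXO1. Arc had 0.97 (SE 0.41) in SRF-ICA1L and 1.01 (SE 0.41) in SRF-RELA, and Egr4 had 4.64 (SE 1.96) in SRF-RELA. For the 4 fusions averaged there were 2 of 10 (18.5% of all genes), Egr4 at 3.79 (SE 1.37) and Klf2 at -0.73 (SE 0.28). None of these passed the adjustment, with edgeR adjusted p-values of 0.163 and 0.190 for the last pair.

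A log2 fold change of at least 1 in size with an unadjusted p over 0.05 was also found for the following members. Against pMSCV these were Nr4a1 in SRF (-1.19, SE 2.02), Klf4 in SRF-FOXO1 (-1.23, SE 0.63), Egr2 in SRF-ICA1L (1.03, SE 1.32), and Egr1 (1.11, SE 1.45) and Egr2 (1.05, SE 1.32) in SRF-RELA. Against SRF they were Egr4 in SRF-FOXO1 (2.26, SE 1.91) and in SRF-PDGFRB (1.94, SE 2.07), and Egr2 (1.51, SE 1.34), Egr3 (1.16, SE 1.16) and Egr4 (3.87, SE 1.93) in SRF-ICA1L. In SRF-RELA they were Egr2 (1.53, SE 1.34), Egr3 (1.17, SE 1.16), Ier2 (1.04, SE 1.13) and Nr4a1 (1.30, SE 2.02). Egr4 against pMSCV, which rests on 4 counts there, is given by its counts above, and for these genes the libraries of the lines overlapped.

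Libraries of the lines did not overlap for few members. Klf2 was lower than pMSCV in SRF (1 of 10 members, 9.16% of all genes in either direction), in SRF-FOXO1 (1 of 10, 23%), in SRF-PDGFRB (1 of 10, 15.9%) and in SRF-ICA1L, where Arc was higher as well (2 of 10, 10.2%). No member was apart from pMSCV in SRF-RELA (11.1% of all genes). Against SRF, Arc was higher in SRF-ICA1L (1 of 10, 7.58%) and SRF-RELA (1 of 10, 10.9%) and lower in SRF-PDGFRB (1 of 10, 25.7%), and no member was apart in SRF-FOXO1 (35.4%). For SRF-PDGFRB this was a near tie, with replicate 2 at 11.701 CPM (263 counts) and SRF replicate 3 at 11.723 CPM (269 counts). The comparisons with pMSCV share its 3 libraries, and those with SRF share the SRF libraries.

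With libraries of the same number set side by side, the EGR genes of 2 fusion lines stood above pMSCV each time. In SRF-RELA, Egr1 was 3.64, 1.73 and 2.08 times its level in pMSCV replicates 1, 2 and 3, and Egr2 was 5.53, 1.74 and 2.03 times. Egr3 ran from 1.40 to 3.49 times, Arc from 1.62 to 4.63 times and Ier2 from 1.33 to 3.58 times. In SRF-ICA1L, Egr1 ran from 1.49 to 2.53 times, Egr2 from 1.61 to 5.78 times, Egr3 from 1.29 to 3.72 times, Arc from 1.33 to 4.88 times and Ier2 from 1.13 to 1.99 times. With Egr4, whose counts were also higher in each pair, 6 of the 10 members were above pMSCV in 3 of 3 pairs in each line, where 19% of all genes were so in SRF-ICA1L and 20.4% in SRF-RELA. The replicate 3 pair of Egr4 was only 2 counts against 0 in SRF-ICA1L and 1 against 0 in SRF-RELA.

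The Krüppel-like factors went the other way. Klf2 ran from 0.310 to 0.636 times its pMSCV level in SRF-ICA1L and from 0.472 to 0.967 times in SRF-RELA, and Klf4 from 0.414 to 0.949 and from 0.531 to 0.919 times. Nr4a1 was lower in the 3 SRF-ICA1L pairs (0.545 to 0.774 times) and mixed in SRF-RELA (0.527 to 1.21 times). Members below pMSCV in 3 of 3 pairs numbered 3 in SRF-ICA1L (18.1% of all genes) and 2 in SRF-RELA (20.3%). In SRF itself 0 members were above pMSCV in 3 of 3 pairs (17.4% of all genes) and 1, Klf2, was below (17.2%), at 0.484 to 0.833 times.

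**Figure D3:**
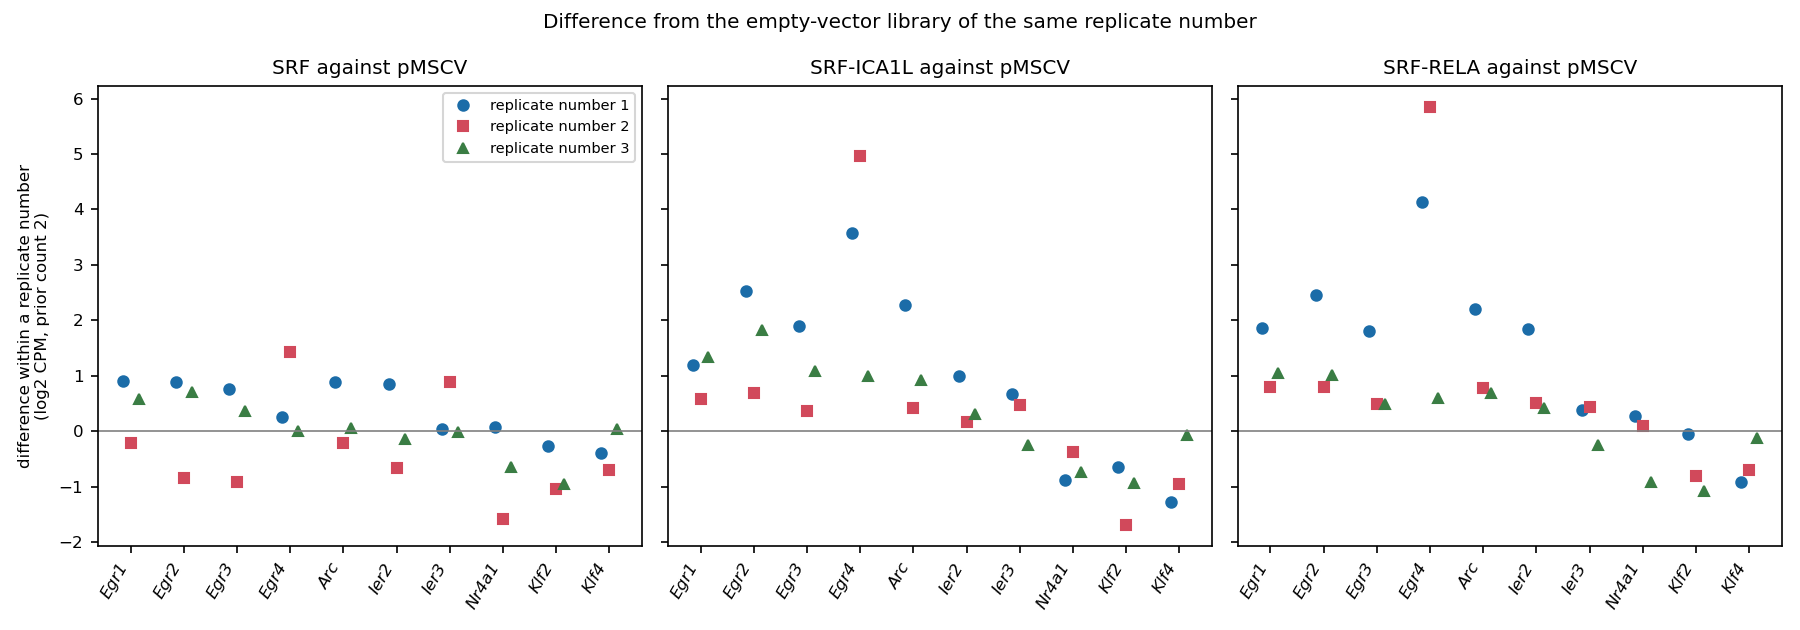
Difference in level between the library of a line and the pMSCV library of the same replicate number (log2 CPM with a prior count of 2, vertical axis) for each gene in SRF, SRF-ICA1L and SRF-RELA. Points for Egr1 to Ier2 lie above 0 in the 2 fusion panels and those for Klf2 and Klf4 below, whereas in SRF 9 of 10 genes have points on both sides of 0 or at it.

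With the replicate number as a block in those 12 libraries, a fit that takes out the shared level of each number, 3 of 10 members were called for SRF-ICA1L against pMSCV, where 2.99% of all genes were called. Egr1 rose, with a log2 fold change of 1.03 (SE 0.22, edgeR adjusted p = 0.0391), Egr4 rose (edgeR adjusted p = 0.00307), and Klf2 fell, with -1.09 (SE 0.21, edgeR adjusted p = 0.0267). Egr2 stood just outside the threshold at 1.58 (SE 0.36, edgeR adjusted p = 0.0502), followed by Arc at 1.16 (SE 0.29, adjusted p = 0.0636), Klf4 at -0.77 (SE 0.20, adjusted p = 0.0683) and Egr3 at 1.05 (SE 0.31, adjusted p = 0.101). An unadjusted p under 0.05 was found for 7 of the 10 (19% of all genes), all but Nr4a1, Ier2 and Ier3. The median of the 10 log2 fold changes was 0.74 and that of all genes 0.01. The Egr1 call was lost without any of the SRF-ICA1L libraries (edgeR adjusted p = 0.104, 0.138 and 0.134 without replicates 1, 2 and 3) and without pMSCV replicate 1 (0.142) or 3 (0.0879). The Klf2 call was lost without SRF-ICA1L replicate 1 (edgeR adjusted p = 0.105) or 2 (0.129) and without pMSCV replicate 2 (0.0510) or 3 (0.0581). Without pMSCV replicate 2, Egr2, Egr3 and Arc were called as well (edgeR adjusted p = 0.0118, 0.0310 and 0.0379), and without replicate 3 of pMSCV or of SRF-ICA1L so was Klf4 (edgeR adjusted p = 0.0164 and 0.0499). Without replicate 1 of all 4 lines no member was called, with Egr1 at an edgeR adjusted p of 0.280.

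For SRF-RELA against pMSCV the same fit called 3 of 10 members, where 6.48% of all genes were called, all 3 of them higher. Egr1 rose by 1.24 on the log2 scale (SE 0.22, edgeR adjusted p = 0.0115), Arc by 1.17 (SE 0.29, edgeR adjusted p = 0.0407), and Egr4 rose as well (edgeR adjusted p = 0.000995). Egr2 missed the threshold at 1.37 (SE 0.36, edgeR adjusted p = 0.0530), and Ier2 was at 0.90 (SE 0.26, adjusted p = 0.0656), Egr3 at 0.89 (SE 0.30, adjusted p = 0.117), Klf2 at -0.64 (SE 0.21, adjusted p = 0.106) and Klf4 at -0.59 (SE 0.20, adjusted p = 0.107). An unadjusted p under 0.05 was found for 8 of the 10 (22.4% of all genes), all but Ier3 and Nr4a1. The median of the 10 was 0.89, beside 0.01 over all genes. Egr1 was no longer called without SRF-RELA replicate 1 (edgeR adjusted p = 0.0665) or pMSCV replicate 1 (0.0621). Arc was lost without SRF-RELA replicate 1, 2 or 3 (edgeR adjusted p = 0.160, 0.125 and 0.0621) and without pMSCV replicate 1 or 3 (0.0803 and 0.0570). Without pMSCV replicate 2, Egr2, Egr3 and Ier2 were called (edgeR adjusted p = 0.00928, 0.0268 and 0.0376), and without pMSCV replicate 3, Klf4 was (0.0217). Without replicate 1 of all 4 lines no member was called (0.196 for Egr1), and without their replicate 3 Egr1 was lost (0.0646).

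**Figure D4:**
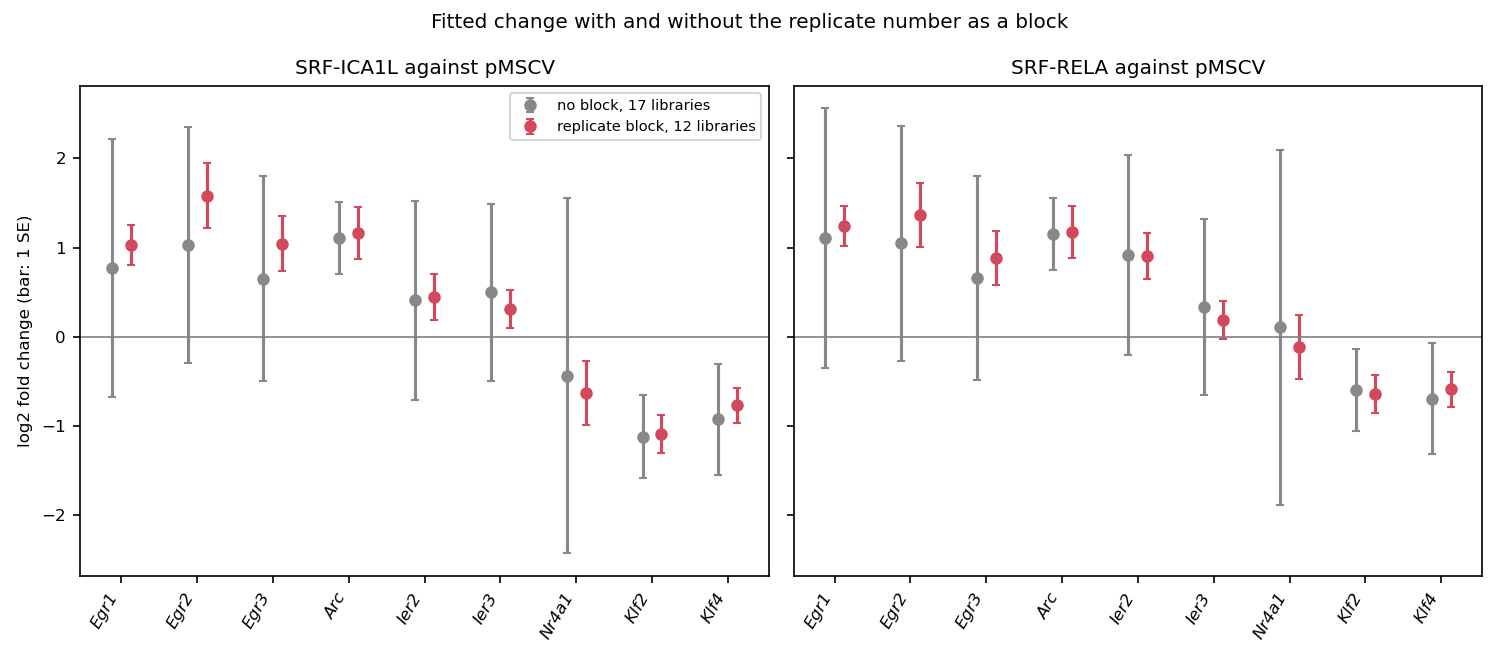
Log2 fold change against pMSCV (vertical axis, points, with bars of 1 SE) of 9 members in SRF-ICA1L and SRF-RELA, fitted over 17 libraries without the replicate number and over 12 libraries with it as a block. Egr4, with at most 3 counts in each pMSCV library, is left out. The SE of Egr1 in SRF-RELA is 1.45 without the block and 0.22 with it, while the values themselves are 1.11 and 1.24.

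In SRF against pMSCV the blocked fit called 0 of 10 members (0.0137% of all genes), and 1, Klf2 at -0.77 (SE 0.21), had an unadjusted p under 0.05 (15.1% of all genes) with an edgeR adjusted p of 0.213. Against SRF, Egr4 was the only member called in each fusion line, 1 of 10 where 0.0956% of all genes were called in SRF-ICA1L and 0.656% in SRF-RELA. As set out above, Egr4 was open to testing only through its fusion libraries, so this call is a description. Its log2 fold change was 3.90 (SE 0.46, edgeR adjusted p = 0.0218) in SRF-ICA1L and 4.55 (SE 0.45, edgeR adjusted p = 0.00625) in SRF-RELA, from summed counts of 149 and 250 against 10. These ratios were 15.3 (exact 95% interval of the counts 8.10 to 32.6) and 26.2 (14.0 to 55.3). The calls of the 12-library fit were not found in the block over all 17 libraries, in which the numbers of SRF-FOXO1 and SRF-PDGFRB enter as well. There 0 of 10 members were called for SRF-ICA1L (0% of all genes) and SRF-RELA (0%) against pMSCV, with lowest edgeR adjusted p-values of 0.326 and 0.195, and 0 of 10 for each against SRF (0.00664% of all genes in both). With the block in only the 6 libraries compared, where Egr4 was not tested for want of counts, 0 members were called for SRF-ICA1L against pMSCV (0.136% of all genes; edgeR adjusted p = 0.108 for Egr1 and 0.117 for Klf2). For SRF-RELA against pMSCV 1 was called, Egr1 (2.98% of all genes; edgeR adjusted p = 0.0402, and 0.115 for Arc). Against SRF, 2 were called in SRF-ICA1L, Egr2 and Egr3 (0.224% of all genes; edgeR adjusted p = 0.0269 and 0.0418), and 0 in SRF-RELA (0%).

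The Egr4 call against SRF in SRF-ICA1L was lost on leaving out any 1 of the 6 libraries compared (edgeR adjusted p = 0.142, 0.151 and 0.0563 without SRF replicates 1, 2 and 3, and 0.0686, 0.178 and 0.0639 without those of SRF-ICA1L), while the call in SRF-RELA was kept on leaving out 1 library and lost without replicate 1 or 2 of all 4 lines (edgeR adjusted p = 0.171 and 0.050019).

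Other members with an unadjusted p under 0.05 against SRF were Egr1, Egr2, Egr3 and Arc in both lines and Ier2 in SRF-RELA. In SRF-ICA1L, Egr2 was at 1.43 (SE 0.36), Egr3 at 1.02 (SE 0.30), Arc at 0.99 (SE 0.29) and Egr1 at 0.61 (SE 0.22), and in SRF-RELA at 1.22 (SE 0.36), 0.87 (SE 0.30), 1.004 (SE 0.29) and 0.82 (SE 0.22). Ier2 was at 0.92 (SE 0.26) in SRF-RELA. With Egr4 they made 5 of 10 members in SRF-ICA1L (9.08% of all genes) and 6 of 10 in SRF-RELA (17%). The edgeR adjusted p-values of all but Egr4 lay between 0.117 and 0.427. Pair by pair, 6 members were above SRF in 3 of 3 pairs in both lines, Egr1 to Egr4, Arc and Ier2, where 17.5% of all genes were so in SRF-ICA1L and 19.5% in SRF-RELA. The replicate 3 pair of Egr4 was again only 2 counts against 0 in SRF-ICA1L and 1 against 0 in SRF-RELA. Below SRF in 3 of 3 pairs was 1 member in SRF-ICA1L, Klf4 (17.9% of all genes), and 0 in SRF-RELA (21.8%).

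SRF-FOXO1 and SRF-PDGFRB were not compared pair by pair, as their numbers did not pair with all of the other 4 lines. With SRF alone those of SRF-FOXO1 did. Deviations from the group mean correlated at 0.220 to 0.330 between same-numbered libraries of these lines and at most 0.079 between others. A fit of all 17 libraries that held the replicate number as a block called 1 of 10 members in SRF-FOXO1 against pMSCV, Klf2 at -1.91 (edgeR adjusted p = 0.0186), where 6.78% of all genes were called. It called the same gene, 1 of 10, for the 4 fusions averaged, at -0.82 (edgeR adjusted p = 0.0431), where 3.88% were called. Without the block, leaving out SRF-FOXO1 replicate 2 put Klf2 at -2.60 (edgeR adjusted p = 0.0226). The share of all genes called in that fit is not given here, so nothing is read from this call. SRF-FOXO1 replicate 2 held 56.9 CPM of Klf2, against 21.4 and 12.8 CPM in the others. Summed myoblast markers in SRF-FOXO1 ran from 163 to 209.6 CPM, all below pMSCV. The 3 fibroblast markers in the table (Pdgfra, Dcn, Lum) summed to 231, 67.5 and 1779.7 CPM in SRF-FOXO1 replicates 1, 2 and 3, highest where Klf2 was lowest. They summed to 35.8 to 448 CPM in pMSCV and 37.3 to 59.3 CPM in SRF. In pMSCV the order was not reversed in this way, as replicate 2 had the 448 CPM and also the highest Klf2, 139 CPM. The part of these cell markers in the level of Klf2 was not tested.

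The replicate order of the members was found in many other immediate-early genes, but not in all. Of 32 combinations of the 8 AP-1 genes listed with the 4 lines, replicate 3 was the lowest in 29, and of 80 combinations for 20 other immediate-early genes in 62, against 33.6% of such combinations over all genes. It was the lowest in 6 of 20 for ternary complex factors and EGR corepressors, 25 of 40 for feedback genes of the ERK pathway and 21 of 40 for other KLF genes. Fosl1, an AP-1 subunit, was highest in pMSCV replicate 3 (188, 158 and 300.2 CPM). Fos, the AP-1 subunit that is the best known immediate-early gene, was at 159, 562 and 1.45 CPM in pMSCV, 388, 221 and 1.002 CPM in SRF, 305, 223 and 3.43 CPM in SRF-ICA1L and 600.0, 569 and 1.73 CPM in SRF-RELA. In SRF-FOXO1 it was at 5.14, 361 and 4.64 CPM and in SRF-PDGFRB at 186 and 2.71 CPM. The low libraries were those in which Egr1 was low, but replicate 1 exceeded replicate 2 in SRF, SRF-ICA1L and SRF-RELA. None of the 8 AP-1 genes, of 20 other immediate-early genes, of 5 ternary complex factors and EGR corepressors, of 10 feedback genes of the ERK pathway and of 10 other KLF genes was called in the fit without the block, in any comparison with pMSCV.

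With the block, 1 of 8 AP-1 genes was called in SRF-ICA1L and in SRF-RELA, each against pMSCV. For this and the lists below, the share of all genes called was 2.99% in SRF-ICA1L and 6.48% in SRF-RELA. Atf3, a stress-induced factor, fell in SRF-ICA1L (log2 fold change -1.57, SE 0.25, edgeR adjusted p = 0.0133). Junb, an AP-1 subunit, rose in SRF-RELA (1.07, SE 0.21, edgeR adjusted p = 0.0161). The median log2 fold change of the 8 was -0.34 and -0.13. Among the 20 other immediate-early genes 1 fell in SRF-ICA1L, Csrnp1 (-0.94, SE 0.16, edgeR adjusted p = 0.0158). In SRF-RELA 1 rose, Zfp36, which encodes an mRNA decay factor (1.18, SE 0.24, edgeR adjusted p = 0.0183), and 2 fell, Csrnp1 (-0.78) and Plk2 (-0.76). The medians of those 20 were -0.06 and 0.15. Of the 5 ternary complex factors and corepressors, Nab1 and Nab2 included, 0 were called in either line, with medians of 0.20 and 0.22.

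Of the 10 ERK feedback genes 1 fell in each line, Spry2, which encodes an inhibitor of receptor kinase signalling (-0.86, SE 0.14, edgeR adjusted p = 0.0133 in SRF-ICA1L and -1.03, SE 0.14, edgeR adjusted p = 0.00373 in SRF-RELA). The medians of the 10 were -0.30 and -0.47. Among the 9 other KLF genes tested, Klf8 rose in both (1.77, SE 0.29, and 2.50, SE 0.29), Klf11 fell in SRF-ICA1L (-0.57) and Klf12 fell in SRF-RELA (-1.38), with medians of 0.24 and 0.06. The genes named in these lists were chosen after their values were seen.

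Myoblast markers moved in SRF-ICA1L and SRF-RELA against pMSCV, and also in SRF against pMSCV. In SRF, with the block, 0 of 6 were called, but 6 of 6 had an unadjusted p under 0.05 (15.1% of all genes). Their median log2 fold change there was -0.81, and of the members only Klf2 had such a p. Against SRF, 0 of 6 were called in SRF-ICA1L (0.0956% of all genes) and 1 of 6 in SRF-RELA (0.656%). With the block, 4 of 6 fell in SRF-ICA1L and 5 of 6 in SRF-RELA against pMSCV, among them Myod1, the master regulator of the muscle lineage (-1.41, SE 0.20, and -1.69, SE 0.20). Their summed level was 369 to 967 CPM in SRF-ICA1L and 278 to 607 CPM in SRF-RELA, below the 1211 to 1668 CPM of pMSCV. Of 9 markers of differentiating muscle, 2 and 4 fell, with Myog in both (-2.44, SE 0.46, and -3.04, SE 0.48). The summed level of the 9 was 203, 142 and 279 CPM in pMSCV, 54.7, 83.4 and 93.2 CPM in SRF-ICA1L and 84.6, 259 and 38.0 CPM in SRF-RELA. In SRF-RELA replicate 2, Acta1 was at 159.8 CPM, against 31.2 CPM in pMSCV replicate 2. Their part in the levels of the EGR genes was not tested. Of the 4 fibroblast markers 3 were in the table, with summed levels of 35.8 to 448 CPM in pMSCV, 52.0 to 159 CPM in SRF-ICA1L and 31.0 to 217 CPM in SRF-RELA. Of 4 macrophage markers 2 were in the table, with summed levels under 8 CPM in every library, and of 4 endothelial markers 2, under 3 CPM.

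As a description of how the members varied among themselves, log2 CPM was correlated with Egr1 over the 17 libraries, which share lines and replicate numbers and differ little in depth. Pearson's r was 0.98 for Ier2, 0.95 for Nr4a1, 0.93 for Egr2 and for Ier3, 0.83 for Egr3 and Egr4 and 0.77 for Klf4. It was 0.54 for Arc and 0.42 for Klf2, the 2 members with the smallest share for the replicate number. With the mean of each line taken out, r was 0.99 for Ier2 and Nr4a1, 0.94 for Klf4, 0.62 for Arc and 0.69 for Klf2. Spearman's rho with Egr1 ran from 0.34 (Klf2) to 0.95 (Ier2), and without the 2 libraries farthest from the median of Egr1, r ran from 0.49 (Arc) to 0.98 (Ier2).

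Of 12572 genes with a mean of at least 1 CPM, the 5 whose log2 CPM correlated best with Egr1 were Ier2 itself (r = 0.98), Apol8 (0.98), Ccnl1 (0.97), the AP-1 gene Junb (0.97) and the nuclear receptor gene Nr4a2 (0.96). For Nr4a1 they were Ccnl1 (0.98), Nr4a2, Nfil3, Apol8 and Nr4a3 (0.97 each). Nr4a2 was at 60.2, 141 and 21.9 CPM in pMSCV and 104, 276 and 17.3 CPM in SRF-RELA, in the order of replicates 1, 2 and 3. Replicate 2 was thus the highest and replicate 3 the lowest in both lines, as for Nr4a1.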

How the data were processed

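The authors deposited 1 table of raw counts per gene, not normalized, with a column for each of the 17 libraries. Per the submitters' processing notes, FastQC 0.11.8, Trimmomatic 0.39, HISAT2, featureCounts and Subread 2.0.0 were used with GRCm38. The strand setting and annotation are not given in the sources used here, so reads shared with related or antisense genes may be split. No replicates of a line agreed within sampling noise (chi-square divided by its degrees of freedom, 29.8 to 189).

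After TMM scaling, lines were compared by the quasi-likelihood test of edgeR 4.0.16 (R 4.3.3, limma 3.58.1) in 1 fit of 17 libraries and 6 groups, with Benjamini-Hochberg adjustment over the 15062 genes tested; the low-count filter removed none. The SE is the log2 fold change divided by the square root of F. The code was tested on simulated data. Log2 CPM has a prior count of 2. Samples were grouped by title. The members, the lists and the tests were chosen with earlier results of these data known. Levels are given for all members, and fold changes where a member was called, had an unadjusted p under 0.05 or reached a log2 fold change of 1.

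Groups share replicate numbers. Across genes, deviations from the group mean correlated at 0.392 to 0.789 between same-numbered libraries of SRF-RELA, SRF-ICA1L, SRF and pMSCV and at most 0.114 between others, so the numbers pair these 12 libraries; this comes from the data, not the labels. SRF-FOXO1 and SRF-PDGFRB did not pair with all of them. Alternatives were DESeq2 1.42.0, other scaling and filters, fits of the compared groups alone, replicate blocks and leaving out libraries. Exon lengths and positions came from GENCODE M21, promoters from RefSeq.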

Additional observations from a re-analysis of the deposited data

How the results depend on the processing

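Scaling (RLE) and filters left the count of members called at 0 in all 10 comparisons, and scaling moved the median of all genes by less than 0.1 (log2). Fits of the compared groups alone also left it at 0 in 9 comparisons. They were not run for the 4 fusions averaged. DESeq2 and the replicate block over 17 libraries each gave 1 for SRF-FOXO1 against pMSCV, and that block gave 1 for the 4 fusions averaged. Without a block, leaving out a library gave 0 to 1 for SRF-FOXO1 against pMSCV and 0 in the other 9 comparisons. The shares of all genes called in those leave-out fits are not given here, so nothing is read from these counts. The replicate block over 12 libraries gave 3 for SRF-ICA1L and 3 for SRF-RELA against pMSCV and 1 for each against SRF. The replicate block in the compared groups alone gave 1 for SRF-RELA against pMSCV (Egr1, 2.98% of all genes) and 2 for SRF-ICA1L against SRF (Egr2, Egr3, 0.224%). The calls of the 12-library block were absent from the 17-library block, and of them only Egr1 in SRF-RELA was made in the compared groups alone, where Egr4 was not tested. No block changed the count in the other comparisons. In the 12-library block, leaving out a library or a replicate number, an alternative added after the data were seen, gave 0 to 5 members for SRF-ICA1L (0% to 3.66% of all genes) and 0 to 6 for SRF-RELA (0.00679% to 8.08%) against pMSCV, with 0 without replicate 1 and the highest without pMSCV replicate 2, 0 for SRF-ICA1L against SRF (0% to 0.0201%) and 0 to 1 for SRF-RELA against SRF (0% to 0.249%).

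Without the block, leaving out 1 library turned the sign of 11 of the log2 fold changes of members printed above, none of them called. The cause was not tested. Only fold changes of members and comparisons printed above, with or without the block, were counted, so others may turn as well. Against pMSCV, Nr4a1 in SRF ran from -2.11 to 0.94. Egr1, Egr2 and Egr3 in SRF-ICA1L ran from -0.20 to 2.19, -0.069 to 3.41 and -0.36 to 2.53, and Egr2 and Egr3 in SRF-RELA from -0.28 to 3.44 and -0.62 to 2.54, lowest without replicate 2 of the fusion line and highest without that of pMSCV. Against SRF, Egr4 ran from -2.50 to 2.97 in SRF-FOXO1 and from -4.78 to 2.94 in SRF-PDGFRB, Egr1 from -0.34 to 1.31 in SRF-ICA1L, and Egr3 and Nr4a1 from -0.12 to 1.97 and -0.74 to 2.22 in SRF-RELA. The spread between libraries limits these values, and depth limits Egr4, whose level in pMSCV rests on 4 counts.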
